A study of Mus musculus with 504 samples.

Results

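The integrin and laminin genes described here are 36 of the 55450 gene identifiers in the deposited count table, 26 genes for integrin chains and 10 for laminin chains. They were chosen by family name, with earlier results of these data known, and no threshold on a measured value was used. They are read in chain classes set by textbook sites of expression: 9 epithelial chains, 14 mesenchymal or stromal chains, 9 leukocyte or platelet chains, 3 broadly expressed chains and Lama1 by itself.

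Integrins are receptors made of an alpha and a beta chain that span the plasma membrane, bind matrix proteins or counter-receptors on other cells and couple them to the cytoskeleton. Laminins are trimers of an alpha, a beta and a gamma chain and form the sheet of the basement membrane on which epithelial cells rest. In the mammary gland, alpha 6 beta 4 integrin anchors basal cells to laminin through hemidesmosomes, fibroblasts and mural cells bind fibronectin and collagens through other pairs, and leukocytes carry beta 2 integrins, for which they are the textbook source.

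The libraries come from breast tumours that the polyoma middle T oncogene, under a mammary tumour virus promoter (MMTV-PyMT), causes in mice, and compare cancer cells before, during and after an epithelial-to-mesenchymal transition (EMT). All animals carry these alleles: besides MMTV-PyMT, a Flp recombinase under the same promoter (MMTV-Flpo) and the reporter RC::FrePe label cancer cells with mCherry. A tamoxifen-activated Cre then switches them for good to GFP, so that GFP marks cells that expressed the driver gene of the Cre at some time. Each library is a well of 5 sorted cells made with Smart-seq2, a full-length method with no molecular identifiers.

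In the line with Cdh2-CreERT2 besides these alleles (Cdh2 line), the Cre is driven by the N-cadherin gene, which the study takes as a mark of full EMT. Its groups are GFP-positive, EpCAM-negative P15 (16 libraries that passed quality control, from 3 animals), mCherry-positive, EpCAM-negative P05 (10 libraries, 1 animal) and mCherry-high, EpCAM-high P18 (50 libraries, 5 animals). In the line with Tnc-CreERT2 (Tnc line), it is driven by the tenascin C gene, taken as a mark of partial EMT. Its GFP-positive groups are the EpCAM-negative P15 (12 libraries, 3 animals), the EpCAM-low P10 (25, 4 animals), and the EpCAM-medium P16 (26, 4 animals) and P09 (GFP high; 48, 5 animals). Its other groups are the double-positive, EpCAM-high P22 (50, 5 animals), the mCherry-positive, EpCAM-negative P05 (32, 5 animals), the mCherry-positive, EpCAM-high P17 (11, 3 animals) and the mCherry-high, EpCAM-high P18 (55, 5 animals). For P09 the gate is that on its own libraries, while the description of the series gives this gate under the number P18. Tamoxifen was given to the animals of both lines (2 mg, 2 times a week, week 9 until week 13 or 14), so no group is without it.

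The 335 libraries that passed hold 313655 to 27849014 counts, and their counts were summed per animal and population into 43 sums. Levels are CPM of a sum, that is counts per 1000000 after TMM scaling, and the values of animals are listed by ascending animal number (Cdh1624, Cdh1654, Cdh1725, Cdh1739 and Cdh1803; TENA2462, TENA2483, TENA2517, TENA2524 and TENA2560). P15 was sorted from Cdh1624, Cdh1654 and Cdh1739 and from TENA2483, TENA2517 and TENA2524, P10 and P16 from TENA2462 to TENA2524, and P17 from TENA2517 to TENA2560. 3 sums stand apart in depth: P15 of TENA2524 is 1 library of 508631 counts, P16 of TENA2483 is 1 library, and P18 of Cdh1624 is 2 libraries with 879259 counts together. The EpCAM label was checked against 5 epithelial markers (Epcam, Krt8, Krt18, Cdh1 and Cldn7): their summed level was 27.6 to 180.3 CPM in P15, against 1596 to 17420 CPM in P18, in the Cdh2 line. In the Tnc line it was 29.4 to 231 CPM in P15 and 43.5 to 1299 CPM in P05, against 7432 to 16960 CPM in P18. Leukocyte RNA was found in the EpCAM-negative groups of the Tnc line: Ptprc, which encodes the leukocyte antigen CD45, reached 10 CPM in 12 of 12 pools of P15 and 7 of 32 pools of P05, against 0 of 55 pools of P18. It reached 10 CPM in 0 of 16 pools of P15 in the Cdh2 line. A change in a sum cannot tell fewer cells of a type in the pools apart from less RNA per cell.

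**Figure D1:**
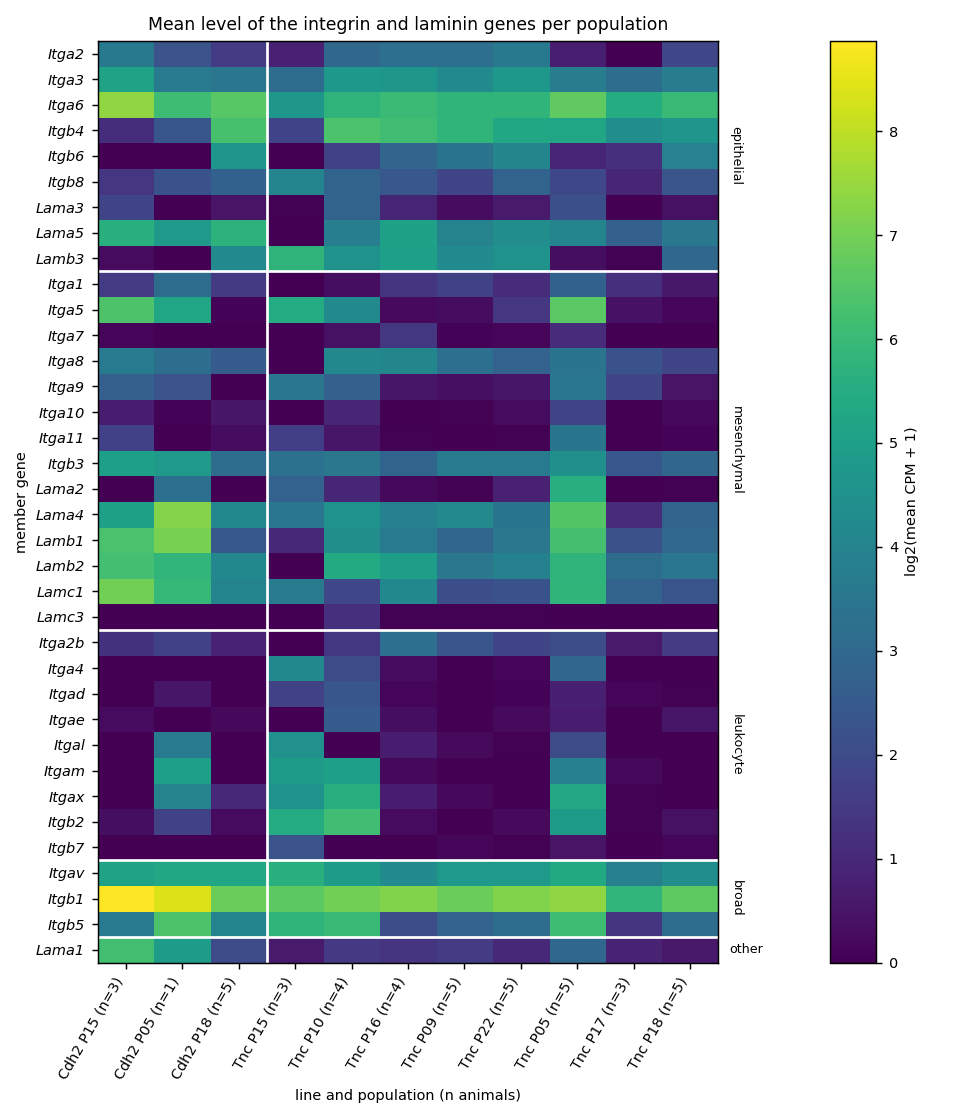
Mean level of each of the 36 genes (rows, by chain class) in the 11 groups (columns; n is the number of animals), as log2 of the mean CPM plus 1 from dark (0) to yellow. Itga6 and Itgb1 are bright in all 11 groups, Itgb6 is dark or nearly so in the EpCAM-negative groups, and the leukocyte chains are bright in P15, P10 and P05 of the Tnc line and P05 of the Cdh2 line.

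Of the 3 broadly expressed chains, Itgb1, which encodes the beta 1 chain shared by most laminin, collagen and fibronectin receptors, was the most abundant of all 36 members per kilobase of exon in each of the 11 groups. On this scale it averaged 114.5 CPM per kb in P15 of the Cdh2 line, against 28.4 CPM per kb in P18 of that line, and 24.2 CPM per kb in P15 of the Tnc line, against 24.4 CPM per kb in P18. Itgb1 reached 10 CPM in 309 of all 335 pools and Itga6, the laminin-binding alpha 6 chain, in 290.

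In the Cdh2 line Itgb1 stood at 321, 296 and 784.5 CPM in the 3 animals of P15, against 1.80, 169.6, 133, 201 and 74.3 CPM in the 5 animals of P18. All 3 P15 animals lie above all 5 P18 animals, the lowest of which is the shallow sum of Cdh1624, with 4 counts. Fits against P18 pair the populations of an animal. In this line the P15 fold changes therefore rest on Cdh1624, Cdh1654 and Cdh1739, which have both P15 and P18. The fitted log2 fold change of Itgb1, given ± SE throughout, was 2.84 ± 0.84 (unadjusted p = 0.00205, edgeR adjusted p = 0.7), which does not pass the threshold of 0.05 over the 33768 genes tested. The SE is not an output of the fit but the absolute log2 fold change divided by the square root of its F statistic. Without Cdh1624, which leaves the pairs of Cdh1654 and Cdh1739, the log2 fold change was 1.38 ± 0.58 (edgeR adjusted p = 0.8). In the Tnc line Itgb1 was at 84.7, 145 and 67.4 CPM in P15 and 157, 207.5, 89.6, 145 and 237 CPM in P05, against 166.5, 105, 65.0, 84.0 and 78.1 CPM in P18. These groups overlap, with log2 fold changes of 0.23 ± 0.61 for P15 and 0.82 ± 0.52 for P05 against P18 (edgeR adjusted p = 1 and 0.509).

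Itga6 was at 180.4, 138 and 183 CPM in P15 of the Cdh2 line, against 221, 68.5, 62.4, 69.8 and 46.3 CPM in P18. The P15 animals exceed 4 of the 5 P18 animals and fall below Cdh1624, the shallow sum (log2 fold change 0.71 ± 0.81, unadjusted p = 0.387, edgeR adjusted p = 1). In the Tnc line Itga6 stood at 4.82, 62.7 and 6.42 CPM in P15 and 30.0, 118, 60.6, 151 and 151 CPM in P05, against 43.8, 52.7, 78.0, 85.6 and 50.5 CPM in P18. P15 was below P18 in 3 of 3 animals and P05 above it in 3 of 5, with overlapping ranges in both cases. Neither difference passed (log2 -1.31 ± 0.78 and 0.68 ± 0.62, edgeR adjusted p = 0.441 and 0.669).

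Itgav, the alpha chain of receptors for vitronectin, fibronectin and latent TGF-beta, was at 26.6, 22.1 and 52.6 CPM in P15, against 121, 21.8, 18.7, 21.1 and 10.3 CPM in P18, in the Cdh2 line. It was at 5.92, 89.6 and 51.4 CPM in P15 and 25.1, 29.5, 45.0, 70.5 and 35.4 CPM in P05, against 27.0, 14.9, 26.3, 12.3 and 17.0 CPM in P18, in the Tnc line. The groups overlap in each of these comparisons (edgeR adjusted p = 1, 0.572 and 0.544). Itgb5, a beta chain that pairs with alpha V, was at 35.0, 85.3, 21.1, 157 and 42.3 CPM in P05, against 3.89, 11.1, 6.61, 16.1 and 2.93 CPM in P18, in the Tnc line. All 5 P05 animals exceed all 5 P18 animals, with a log2 fold change of 3.11 ± 1.40 (unadjusted p = 0.0348, edgeR adjusted p = 0.327). The 7 P05 pools with Ptprc had a median of 95.2 CPM of Itgb5, against 12.0 CPM in the 25 pools without it, and the part of leukocyte RNA in its level was not tested. In P15 of the Tnc line Itgb5 rests on 1 animal, at 0.381, 165 and 0 CPM (log2 1.08 ± 1.93, edgeR adjusted p = 0.957). In Cdh2 animals it was at 9.43, 8.94 and 17.0 CPM in P15, against 34.2, 10.3, 8.53, 16.7 and 5.52 CPM in P18, and the groups overlap (edgeR adjusted p = 1).

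**Figure D2:**
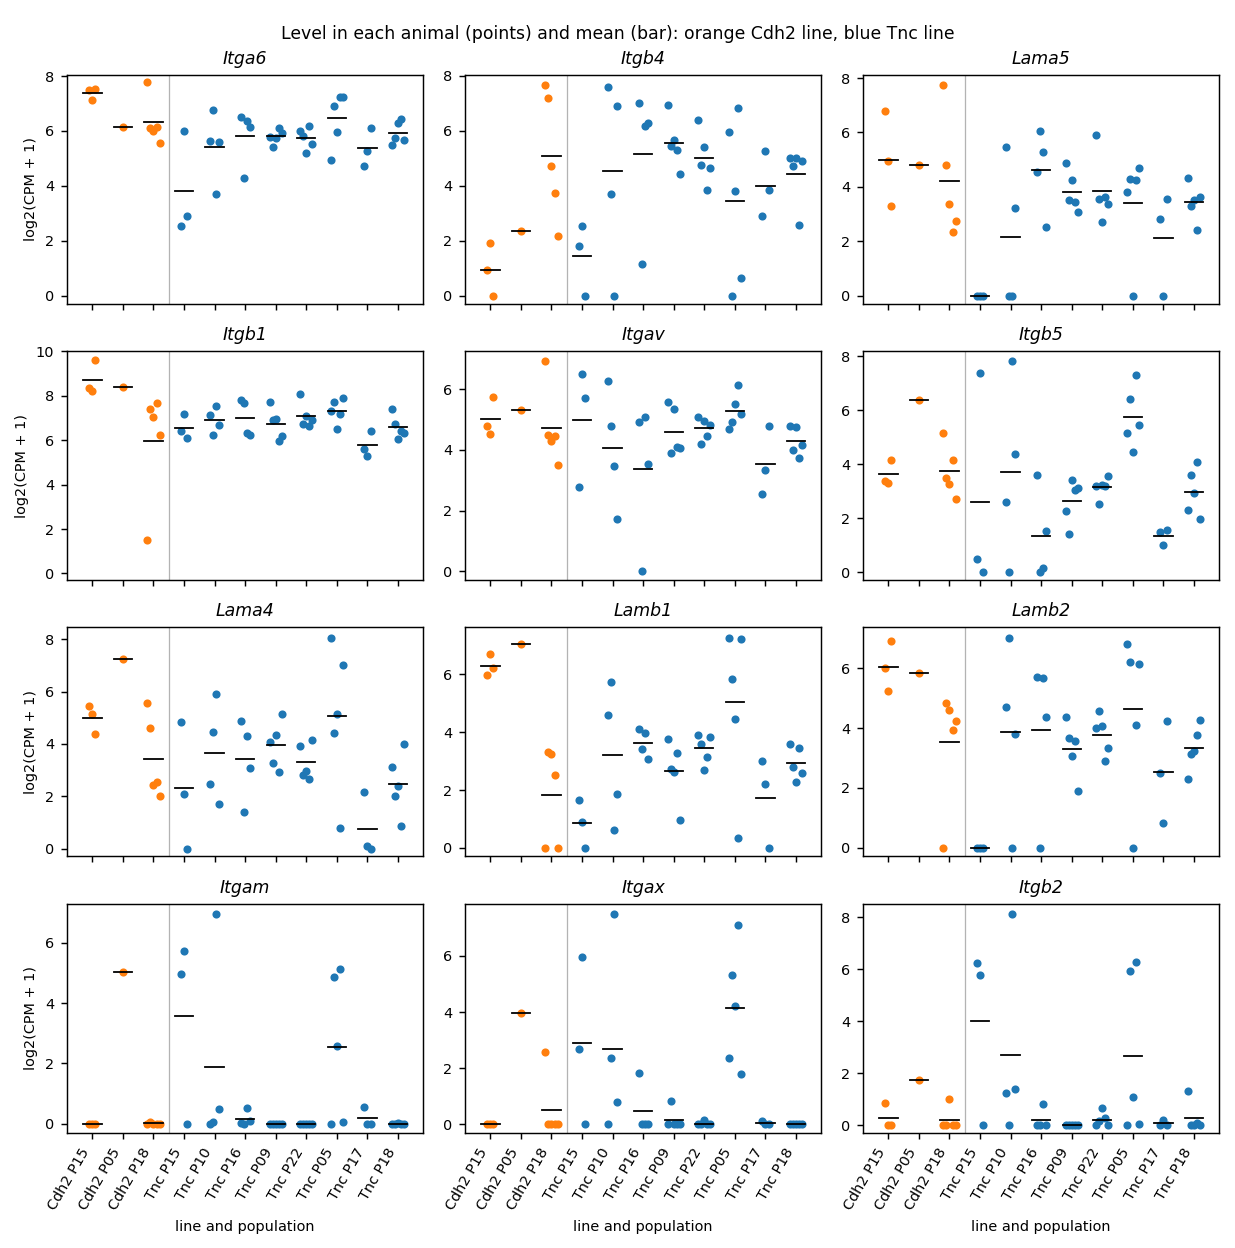
Level of 12 members in each animal (points, log2 of CPM plus 1) by line and population, with the group mean of the logged values as a bar; the Cdh2 line is orange and the Tnc line blue. Itgb1 and Itga6 stay above 0 in every sum, Itgb4 and Lama5 spread widely in the EpCAM-negative groups, and Itgam, Itgax and Itgb2 are near 0 outside P15, P05 and P10.

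Among the epithelial chains, Itgb4, the beta 4 chain of the hemidesmosome receptor, stood below P18 in the GFP-positive, EpCAM-negative P15 of both lines. Cdh2 animals had it at 0.884, 2.76 and 0 CPM in P15, against 202.5, 146, 25.5, 12.2 and 3.46 CPM in P18. All 3 P15 animals lie below all 5 P18 animals, and 1 of 16 P15 pools reached 10 CPM, against 28 of 50 pools of P18. The log2 fold change was -7.91 ± 2.24 (unadjusted p = 0.00144, edgeR adjusted p = 0.619). In the Tnc line Itgb4 was at 2.53, 4.75 and 0 CPM in P15, against 31.5, 25.2, 31.2, 4.96 and 28.8 CPM in P18, again without overlap (log2 -3.03 ± 1.67, unadjusted p = 0.0806, edgeR adjusted p = 0.396). The groups nearly touch, at 4.75 CPM in TENA2517 of P15 and 4.96 CPM in TENA2524 of P18. The 0 in P15 is the single shallow library of TENA2524. In P05, sorted as EpCAM-negative but still mCherry-positive, Itgb4 was split between animals at 60.8, 0, 13.1, 113 and 0.564 CPM and overlapped P18 (log2 -0.57 ± 1.43, edgeR adjusted p = 0.967). Of the 7 P05 pools of the Tnc line with Itgb4 at 10 CPM, 5 also held the epithelial keratin gene Krt8, against 10 of all 32 P05 pools.

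Itgb6 and Lamb3 also stood below P18 in EpCAM-negative groups and are named here after their values were seen. Itgb6 encodes an epithelial beta chain that pairs with alpha V and binds latent TGF-beta. It had 0 counts in the 3 P15 animals of the Cdh2 line, against 45.0, 7.97, 38.2, 28.6 and 2.31 CPM in P18, a log2 fold change of -10.16 or lower with 3 counts over the P15 group as the floor (unadjusted p = 0.000168, edgeR adjusted p = 0.316). In Tnc animals it was at 0, 0.0651 and 0 CPM in P15 and 4.26, 0, 0, 0.195 and 0 CPM in P05, against 18.5, 9.04, 8.43, 15.6 and 20.4 CPM in P18. Neither of the EpCAM-negative groups overlaps P18. The P15 value is 1 count, a pooled log2 ratio of -9.39 (95% exact interval -14.69 to -6.91, unadjusted p = 0.00389, edgeR adjusted p = 0.129), and that of P05 a log2 fold change of -6.32 ± 1.81 (unadjusted p = 0.00168, edgeR adjusted p = 0.0947). Over all 335 pools, 109 held Itgb6 at 10 CPM and 108 of them also held Krt8. In P22, 26 of the 26 pools with Itgb6 held the basal keratin gene Krt14, as did 43 of all 50 pools.

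Lamb3, the beta chain of laminin 332, which hemidesmosomes bind, was at 0, 0 and 0.579 CPM in P15, against 31.5, 33.1, 11.3, 11.8 and 0.625 CPM in P18, in the Cdh2 line. All P15 animals lie below all P18 animals, the nearest pair being Cdh1739 of P15 and Cdh1803 of P18 (log2 -9.44 ± 3.28, unadjusted p = 0.00746, edgeR adjusted p = 0.97). In Tnc animals it was at 0.147, 0, 0, 0.0649 and 0.996 CPM in P05, against 4.17, 14.2, 9.30, 2.35 and 4.87 CPM in P18, without overlap (log2 -6.12 ± 2.01, unadjusted p = 0.00488, edgeR adjusted p = 0.153). P15 of the Tnc line differed between animals, with 0 CPM in TENA2483 and TENA2517 and 162 CPM in the single library of TENA2524. It is the 1 of 12 P15 pools with Lamb3 at 10 CPM, and it held Ptprc above 10 CPM and Krt8 below it. The fitted log2 fold change against P18 was 2.48 ± 2.19 with this animal and turned to -11.43 ± 3.67 without it (edgeR adjusted p = 0.676 and 0.243).

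Lama5 encodes the alpha 5 chain of epithelial and vascular basement membranes. Cdh2 animals had it at 109, 29.7 and 8.70 CPM in P15, against 213, 27.1, 9.43, 4.12 and 5.65 CPM in P18, with overlapping groups (log2 0.08 ± 1.69, unadjusted p = 0.961, edgeR adjusted p = 1). Tnc P15 held 0 counts of it in all 3 animals, against 19.1, 8.71, 10.4, 4.29 and 11.2 CPM in P18, which puts the log2 fold change at -7.27 or lower (unadjusted p = 0.00167, edgeR adjusted p = 0.0935). All 12 of these P15 pools held Ptprc, and the part of leukocyte cells in the low levels of P15 was not tested. P05 of the Tnc line was at 13.0, 18.4, 0, 18.2 and 24.5 CPM and overlapped P18 (edgeR adjusted p = 0.933). The other epithelial chains were the collagen receptor chain Itga2, the laminin receptor chain Itga3, Itgb8 and Lama3. Their group means ran from 1.66 to 33.5 CPM in P15 of the Cdh2 line, with edgeR adjusted p of 1 against P18, and Itga3 reached 10 CPM in 10 of 16 pools.

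Of the laminin chains classed as stromal, Lamb1, Lamb2 and Lamc1 lay above P18 in all P15 animals of the Cdh2 line, while Lama2 and Lamc3 had 0 counts there. In P05 of the Tnc line Lama4, Lamb1, Lamb2 and Lamc1 averaged higher than in P18. edgeR called none of these chains, whereas DESeq2 called Lamb1 in P15 of the Cdh2 line and Lama4, Lamb1 and Lamc1 in P05 of the Tnc line. In P15 of the Cdh2 line Lamb1, the beta 1 chain of laminin 111 and 411, stood at 62.1, 104 and 73.7 CPM, against 0, 8.95, 8.46, 4.80 and 0 CPM in P18. All 3 P15 animals lie above all 5 P18 animals (log2 4.90 ± 1.77, unadjusted p = 0.00962, edgeR adjusted p = 0.992). P05 of the Tnc line was at 153.5, 56.5, 21.0, 0.260 and 149.5 CPM, against 11.2, 6.00, 3.82, 10.0 and 4.98 CPM in P18. P05 was above P18 in 4 of 5 animals and below it in TENA2524 (log2 3.16 ± 1.26, unadjusted p = 0.0176, edgeR adjusted p = 0.253). P15 of the Tnc line was at 2.11, 0.847 and 0 CPM, below all P18 animals (log2 -2.70 ± 1.53, unadjusted p = 0.0881, edgeR adjusted p = 0.412).

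Lamb2, the beta 2 chain of vascular and muscle laminins, was at 63.0, 37.0 and 119 CPM in P15, against 0, 27.4, 23.5, 14.4 and 18.1 CPM in P18, in the Cdh2 line, without overlap (log2 3.39 ± 2.30, unadjusted p = 0.152, edgeR adjusted p = 1). Without Cdh1624 the log2 fold changes were 3.74 ± 1.85 for Lamb1 and 1.74 ± 2.25 for Lamb2 (edgeR adjusted p = 0.941 and 1). Tnc P15 held 0 counts of it in all 3 animals, against 3.93, 7.77, 8.35, 12.6 and 18.5 CPM in P18, a log2 fold change of -7.33 or lower (unadjusted p = 0.00209, edgeR adjusted p = 0.102). In P05 it was at 111, 74.0, 0, 16.4 and 69.5 CPM, above P18 in 4 of 5 animals and 0 in TENA2517 (log2 1.90 ± 1.44, unadjusted p = 0.198, edgeR adjusted p = 0.587). Lama4, the alpha 4 chain of vascular and mesenchymal laminins, was at 43.2, 34.6 and 19.7 CPM in P15, against 46.8, 23.3, 4.38, 4.82 and 2.98 CPM in P18, in the Cdh2 line, and the groups overlap (edgeR adjusted p = 1). In P05 of the Tnc line it was at 266, 20.4, 34.2, 0.714 and 127 CPM, against 7.79, 3.00, 4.32, 0.798 and 15.0 CPM in P18, higher in 4 of 5 animals (log2 3.55 ± 1.16, unadjusted p = 0.00461, edgeR adjusted p = 0.149). P15 of that line was at 27.5, 3.26 and 0 CPM and overlapped P18 (edgeR adjusted p = 0.619).

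Lamc1 and Itga5 are named after their values were seen. Lamc1 encodes the gamma 1 chain that most laminins share. It was at 178, 80.2 and 114 CPM in P15, against 50.4, 8.65, 3.07, 2.83 and 10.8 CPM in P18, in the Cdh2 line, without overlap (log2 3.43 ± 2.18, unadjusted p = 0.126, edgeR adjusted p = 1). In Tnc animals it was at 93.8, 58.9, 29.0, 9.67 and 84.2 CPM in P05, against 5.54, 3.35, 6.76, 3.00 and 1.16 CPM in P18, higher in 5 of 5 animals and without overlap (log2 4.02 ± 1.67, unadjusted p = 0.0229, edgeR adjusted p = 0.279). Itga5, the alpha chain of the fibronectin receptor, was at 8.27, 9.05 and 229.8 CPM in P15, against 0, 0, 0, 0.260 and 0 CPM in P18, in the Cdh2 line. All 3 P15 animals exceed P18, with Cdh1739 far above the other two (log2 10.30 ± 4.19, unadjusted p = 0.0202, edgeR adjusted p = 1). In the Tnc line it was at 73.2, 34.9, 3.69, 267 and 96.6 CPM in P05, against 0.383, 0, 0, 0 and 0 CPM in P18, higher in 5 of 5 animals (log2 11.59 ± 3.26, unadjusted p = 0.00132, edgeR adjusted p = 0.0871). Of the 15 P05 pools with Itga5 at 10 CPM, 10 held the collagen gene Col1a1 and 5 held Ptprc, against 16 and 7 of all 32 P05 pools.

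Lama1, the alpha 1 chain of the laminin 111 of embryonic basement membranes, was in a class by itself. In P15 of the Cdh2 line it stood at 45.9, 61.2 and 108.5 CPM, against 10.8, 0.644, 1.25, 0.412 and 2.76 CPM in P18. All 3 P15 animals exceed all 5 P18 animals (log2 5.88 ± 3.21, unadjusted p = 0.0773, edgeR adjusted p = 1), and 13 of 16 P15 pools reached 10 CPM, against 2 of 50 pools of P18. In the Tnc line it was at 1.59, 0.0651 and 0 CPM in P15 and 3.23, 11.7, 0, 18.3 and 1.96 CPM in P05, against 0, 0, 0.657, 2.04 and 0 CPM in P18, with overlap in both cases (edgeR adjusted p = 0.795 and 0.348). Of the 32 pools of the series with Lama1 at 10 CPM, 13 are P15 pools of the Cdh2 line.

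In P15 of the Cdh2 line Lamb1 reached 10 CPM in 13 of the 16 pools, Lamc1 in 15 and Lama1 in 13, so that most pools held several laminin chains. Of the 13 pools with Lamb1 at 10 CPM, 13 also held Lamc1 and 11 held Lama1. All 13 pools with Lama1 held Itga6, while 1 of the 15 pools with Itga6 held Itgb4. Acta2, the smooth muscle actin gene, reached 10 CPM in 13 of the 16 pools, Col1a1 in 1, Krt8 in 4 and Ptprc in 0. The summed level of 5 pericyte and smooth muscle markers (Rgs5, Pdgfrb, Cspg4, Acta2 and Myh11) was 549.7 to 715 CPM in P15, against 0.407 to 104.4 CPM in P18. This sum is nearly all Acta2, at 638.2 CPM on average in P15, while Rgs5, Pdgfrb, Cspg4 and Myh11 averaged 0.441, 0.488, 0.143 and 0.956 CPM. Of the basal markers, Trp63 averaged 46.5 CPM in P15, against 1.80 CPM in P18. Krt5 and Krt14 went the other way, at 0.350 and 0 CPM, against 1.07 and 46.2 CPM. The 5 fibroblast markers (Col1a1, Col1a2, Dcn, Lum and Pdgfra) summed to 0.133 to 11.8 CPM in P15, against 0.0436 to 7.65 CPM in P18. In P05 of the Tnc line 13 of the 14 pools with Lamb1 held Lamc1 and 12 of 14 held Col1a1. Of all 32 pools of this group, 17 held Lamc1 and 16 held Col1a1. The fibroblast list summed to 11.2 to 10880.0 CPM in P05 of that line, against 0.178 to 7.64 CPM in P18, where Lum had 0 counts. The part that pericyte or fibroblast RNA has in these chain levels was not tested.

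**Figure D3:**
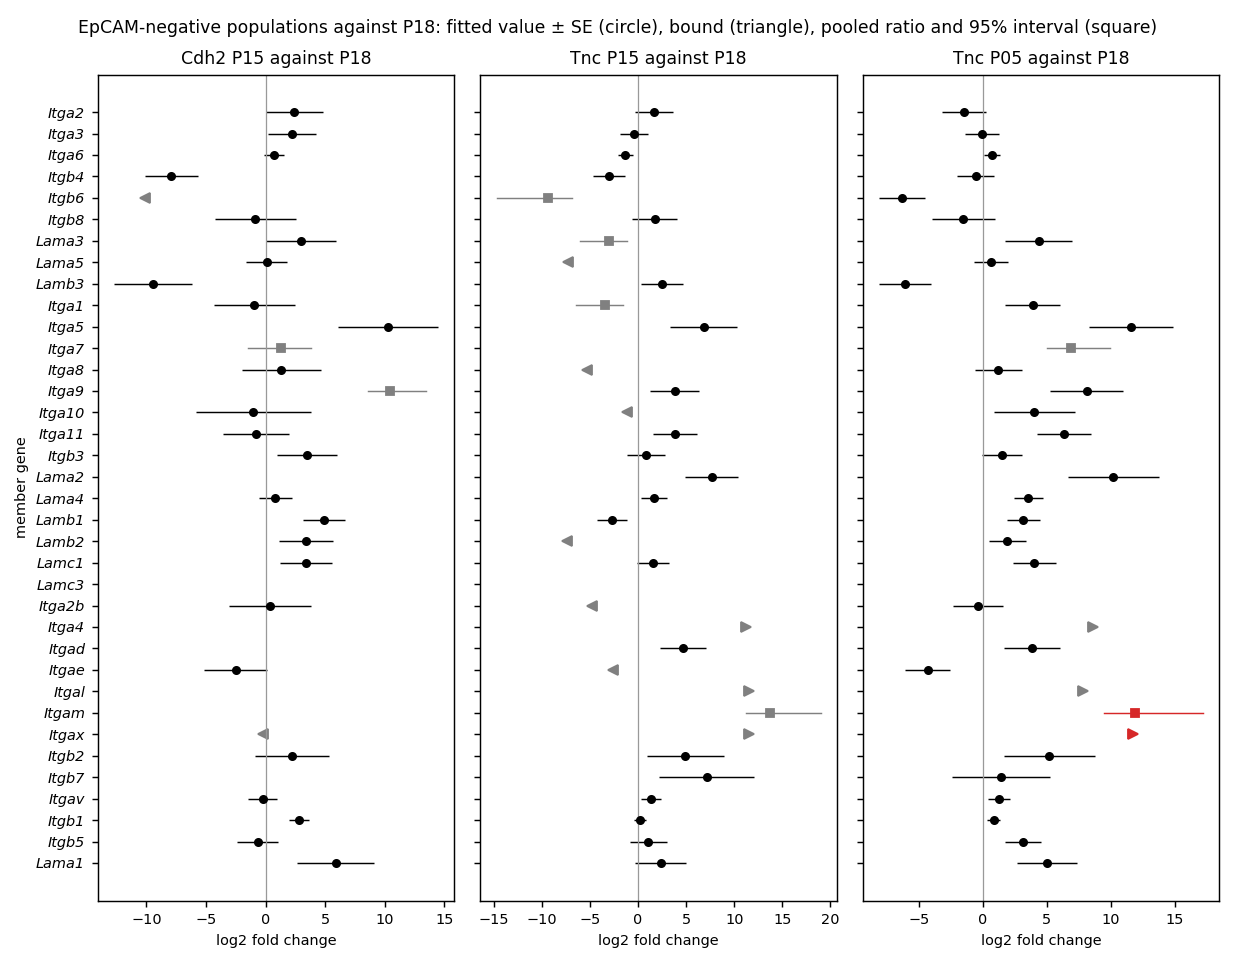
Log2 fold changes of the 36 genes against P18 in P15 of the Cdh2 line and in P15 and P05 of the Tnc line. Circles are fitted values with SE, triangles are bounds where 1 group had 0 counts, squares are ratios of pooled counts with their 95% interval where a group had 1 to 3 counts, and genes with both groups at the floor are left out; red marks an edgeR adjusted p below 0.05. Red marks stand beside Itgam and Itgax in P05 of the Tnc line alone.

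By edgeR, 2 of the 36 genes changed in any of the 12 comparisons, both of them leukocyte chains that rose in P05 of the Tnc line against P18. DESeq2, run as an alternative, called between 0 members (P18 between the lines) and 15 (P05 against P18 of the Tnc line). Itgam encodes the alpha M chain (CD11b) of myeloid cells and Itgax the alpha X chain (CD11c) of dendritic cells and macrophages; both pair with the beta 2 chain. Of the 36 members 2 were called, against 0.545% of all 33768 genes (0.352% called higher). Of all genes called, 64.7% were higher, and 76.6% under RLE scaling. Neighbouring genes on chromosome 7 of GRCm38, they lie 11055 bases apart (Itgam 128062640 to 128118491, Itgax 128129547 to 128150657, both on the plus strand), with Itgad, a further alpha chain gene, 3718 bases beyond Itgax.

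Itgax was at 4.11, 38.5, 17.7, 138 and 2.49 CPM in P05, against 0 counts in all 5 P18 animals. The 5 P05 animals span a wide range, and each exceeds P18. The log2 fold change was at least 11.73 with 3 counts over P18 as the floor (fitted value 14.96 ± 3.20, edgeR adjusted p = 0.0325). Itgam was at 0, 28.3, 5.02, 34.0 and 0.0332 CPM in P05, against 0, 0, 0.0178, 0 and 0 CPM in P18, where 1 count was found in all. It was higher in 4 of 5 animals and 0 in TENA2462, so the groups overlap. The pooled log2 ratio was 11.93 (95% exact interval 9.45 to 17.23), and the fitted log2 fold change 11.44 ± 2.50 (edgeR adjusted p = 0.0446). Gm49368 on the same strand covers 68.7% of the exon bases of Itgam, so its counts are uncertain, since reads there fit both genes.

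In P05 of the Tnc line Itgax reached 10 CPM in 7 of 32 pools, of which 5 held Ptprc, and Itgam in 5 pools, of which 4 held Ptprc. The 7 pools with Ptprc had a median of 82.6 CPM of Itgax and 20.5 CPM of Itgam, against medians of 0 in the 25 pools without it, where the highest pools had 34.3 and 15.7 CPM. Those 7 pools had Lama4, Lamb1 and Lamb2 at 10 CPM in 0 cases, against 14, 14 and 15 of the 25 pools without Ptprc. The 5 leukocyte markers (Ptprc, Laptm5, Fcer1g, Cd68 and Csf1r) summed to 27.0 to 2943 CPM in P05, against 5.58 to 39.1 CPM in P18, where Ptprc had 0 counts. All 5 of them reached 10 CPM in some pool of P05. Without all 25 pools of the series that held Ptprc, the log2 fold changes were 8.63 ± 3.03 (edgeR adjusted p = 0.196) for Itgax and 5.32 ± 1.65 (edgeR adjusted p = 0.145) for Itgam, and neither passed. Leaving out any 1 of the 5 Tnc animals, with 4 pairs left, also ended both calls, with edgeR adjusted p of 0.106 to 0.178 for Itgax and 0.142 to 0.238 for Itgam.

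The promoters of both genes are shown because they lie side by side and moved together. The windows run from 250 bases before to 50 after the gene's start (RefSeq, GRCm38.p6, plus strand), and capitals mark GAGGAA or its reverse complement TTCCTC, the core of the motif of PU.1, a transcription factor of myeloid cells.
Itgam (chr7:128062390-128062689): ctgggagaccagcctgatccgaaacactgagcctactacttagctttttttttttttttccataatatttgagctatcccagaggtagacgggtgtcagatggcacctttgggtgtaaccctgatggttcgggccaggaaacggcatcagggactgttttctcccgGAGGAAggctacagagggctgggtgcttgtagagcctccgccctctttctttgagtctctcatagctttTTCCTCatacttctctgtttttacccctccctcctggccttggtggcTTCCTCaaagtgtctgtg
Itgax (chr7:128129300-128129599): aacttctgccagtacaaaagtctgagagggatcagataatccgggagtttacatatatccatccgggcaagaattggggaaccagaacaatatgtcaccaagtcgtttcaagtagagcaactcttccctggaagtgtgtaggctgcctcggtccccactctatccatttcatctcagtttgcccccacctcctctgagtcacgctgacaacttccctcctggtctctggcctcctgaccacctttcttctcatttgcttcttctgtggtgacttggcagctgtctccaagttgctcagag
The Itgam window holds the motif 3 times and the Itgax window 0 times, which says only that these letters are not in this window. Of all 32851 windows 28.3% hold it on either strand, and of the 26 windows of members 14 do. These belong to 14 of the 23 members with a window, among them the epithelial genes Itgb6 and Lamb3.

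Itgb2, the beta 2 chain that Itgam, Itgax and Itgal pair with, was high in the same animals and was not called. In P05 of the Tnc line it was at 0, 60.6, 1.14, 77.2 and 0.0332 CPM, against 1.47, 0, 0, 0.0484 and 0 CPM in P18 (log2 5.17 ± 3.55, unadjusted p = 0.159, edgeR adjusted p = 0.545). P15 was at 74.0, 54.2 and 0 CPM, high in TENA2483 and TENA2517 and 0 in TENA2524 (log2 4.93 ± 3.98, unadjusted p = 0.227, edgeR adjusted p = 0.628). Over all 335 pools it reached 10 CPM in 15, and 14 of these held Ptprc. In P15 of the Tnc line Itgam was at 29.9, 51.9 and 0 CPM and Itgax at 5.37, 61.6 and 0 CPM (edgeR adjusted p against P18 = 0.0606 and 0.11). At least 1 of Itgal, Itgam, Itgax and Itgb2 was at 10 CPM in 10 of the 12 P15 pools, each of which held Ptprc. The 5 leukocyte markers summed to 1159 to 4652 CPM in P15 of the Tnc line. In P15 of the Cdh2 line Itgam, Itgax, Itgal, Itga4 and Itgb7 had 0 counts in all 3 animals, Itgad had 1 count and Itgb2 was at 0.787, 0 and 0 CPM. Ptprc and Laptm5 had 0 counts there.

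Itga2b, the alpha chain of the platelet fibrinogen receptor, is named after its values were seen. Tnc P15 held 0 counts of it in all 3 animals, against 1.22, 2.12, 2.96, 0.774 and 2.68 CPM in P18, a log2 fold change of -4.79 or lower (unadjusted p = 0.0321, edgeR adjusted p = 0.273). Over all pools it reached 10 CPM in 22, of which 19 held Krt8, 0 held the platelet gene Pf4 and 1 held the platelet gene Gp9. Of all 335 pools 271 held Krt8, 11 held Pf4 and 3 held Gp9, so these counts are too few to set the pools with Itga2b apart.

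**Figure D4:**
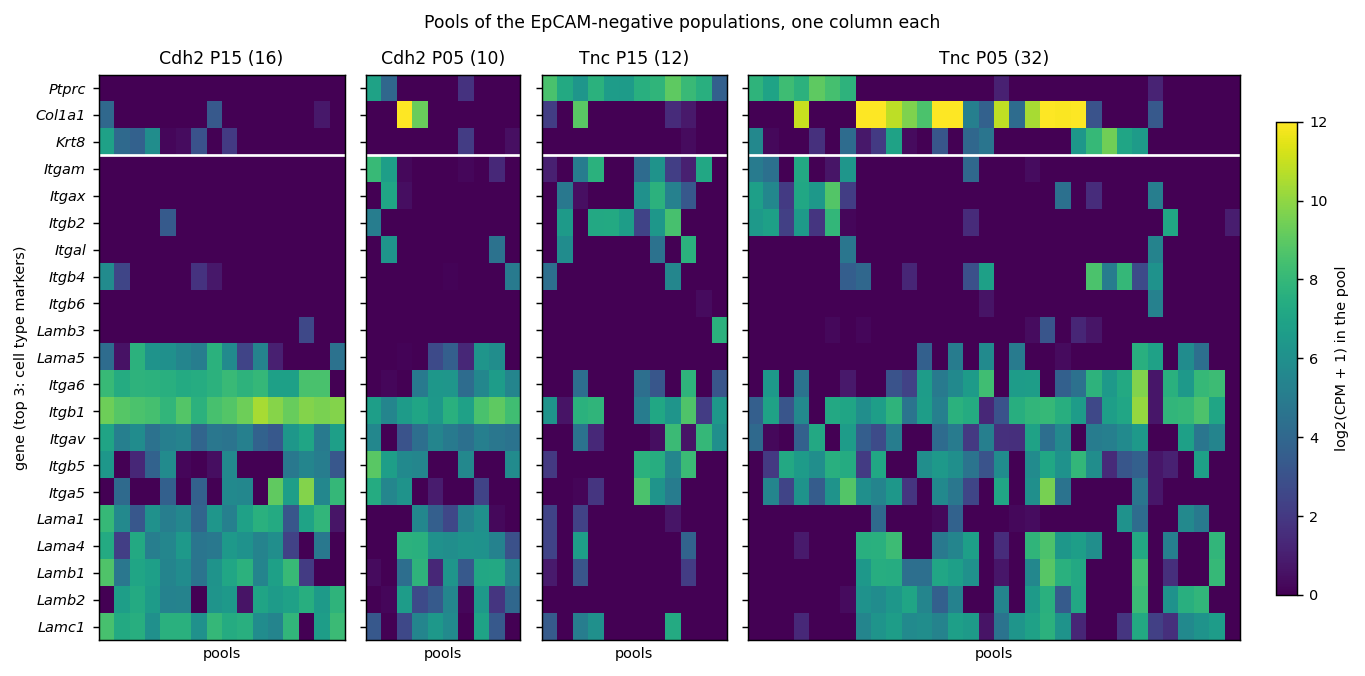
Pools of the EpCAM-negative groups (columns; numbers in parentheses) sorted into those with Ptprc, then Col1a1, then Krt8 at 10 CPM or more, then the rest; rows are these 3 markers and 18 members, as log2 of CPM plus 1. Most of the 16 P15 pools of the Cdh2 line hold Itga6, Itgb1, Lama1, Lama4, Lamb1, Lamb2 and Lamc1. None of them reaches 10 CPM of Ptprc or of Lamb3. Itgam, Itgax and Itgb2 of the Tnc line stand mostly over pools with Ptprc.

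Counted over the members, the EpCAM-negative groups compared with P18 as follows. In P15 against P18 of the Cdh2 line edgeR called 0 of 36 members (background 0.0% of 33768 genes), 6 had an unadjusted p below 0.05 (3.6% of all genes), 3 higher (Itga5, Lamb1 and Itgb1; 1.3% of all genes) and 3 lower (Itgb4, Itgb6 and Lamb3; 2.3%), and DESeq2 called 9 (5.6% of all genes). The 9 DESeq2 calls include Itgal, which had 0 counts in all P15 and P18 sums of this line, so that call rests on no reads. Itgax is also among them, with 0 counts in P15 and 11 counts in P18, all in the shallow sum of Cdh1624. The groups did not overlap for 7 members that were higher (4.07% of all genes) and 3 that were lower (1.28%). In P15 against P18 of the Tnc line edgeR called 0 members (0.729% of all genes), 11 had an unadjusted p below 0.05 (15.2%), 5 higher (5.04%) and 6 lower (10.2%), and DESeq2 called 9 (14.5%). There 8 members were lower without overlap (17.2% of all genes) and 0 higher (0.764%). In P05 against P18 of the Tnc line 15 members had an unadjusted p below 0.05 (13.3%), 13 higher (6.98%) and 2 lower (6.28%), and DESeq2 called 15 (13.5%). The groups did not overlap for 4 members that were higher (1.19%) and 2 that were lower (5.82%). The median log2 fold change of the 36 members was 3.14 in P05, against -0.15 over all genes, 1.46 in P15 of the Tnc line, against -0.61, and 0.04 in P15 of the Cdh2 line, against 0. These medians mix classes that differ. The epithelial, mesenchymal and leukocyte medians were -0.57, 3.95 and 5.17 in P05 and -0.38, -0.41 and 7.14 in P15 of the Tnc line. In P15 of the Cdh2 line they were 0.08, 2.14 and 0, with 5 of the 9 leukocyte chains at the floor in both groups. Under RLE scaling the median of all genes shifted by 0.31 in P05 and 0.43 in P15 of the Tnc line, so fold changes there carry an offset of this size.

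P15 against P05 of the Tnc line sets GFP-positive against mCherry-positive cells, both sorted as EpCAM-negative. Epcam RNA still reached 10 CPM in 3 of 12 pools of P15 and 11 of 32 pools of P05, and Krt8 in 0 and 10 of these pools. edgeR called 0 members (0.136% of all genes), 9 had an unadjusted p below 0.05 (10.3%) and DESeq2 called 8 (16.8%). Of the 9, 8 were lower in P15 (7.11% of all genes) and 1, Lamb3, was higher (3.16%). All P15 counts of Lamb3 lie in the single shallow library of TENA2524. The 8 include Lama5, Lamb1 and Lamb2, whose values are given above. Ptprc was at 10 CPM in 12 of 12 pools of P15, against 7 of 32 pools of P05. The part of leukocyte RNA in these differences was not tested. Lamb2 had 0 counts in P15, which puts the log2 fold change at -9.50 or lower (unadjusted p = 0.000624, edgeR adjusted p = 0.125). That of Lamb1 was -5.86 ± 1.79 (unadjusted p = 0.00281, edgeR adjusted p = 0.208), lower in 3 of 3 animals. Itgam and Itgb2 showed log2 fold changes of -0.39 ± 0.73 and -0.24 ± 1.33 (edgeR adjusted p = 1 for both).

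The GFP-positive and double-positive groups sorted as EpCAM-low, medium or high were compared with P18 as well. The 5 epithelial markers summed to 66.6 to 13760 CPM in P10, so that at least 1 EpCAM-low sum lies in the range of the EpCAM-negative groups, and to 3400 to 15580 CPM in P16, 5276 to 19200 CPM in P09 and 7137 to 22760 CPM in P22. Most members overlapped P18 in these groups. The exceptions were Itgb6, lower in P10 (4.64% of all genes were lower without overlap), Lamb3 and Itga8, higher in P09 (0.871% higher), and Itga8, higher in P22 (0.4% higher); Itga8, a partner of beta 1, is named after its values were seen. edgeR called 0 members in P10 (0.00296% of all genes), P16 (0.00296%), P09 (0.0%) and P22 (0.0%) against P18. At an unadjusted p below 0.05 there were 5 in P10 (8.23% of all genes), 6 in P16 (6.11%), 3 in P09 (2.52%) and 1 in P22 (2.12%), and DESeq2 called 2 in P10 (4.98%), 1 in P16 (3.52%), 2 in P09 (3.71%) and 1 in P22 (2.47%). Itgb4 was at 191, 12.0, 0 and 118 CPM in P10, 127, 1.22, 72.2 and 77.6 CPM in P16, 121.5, 42.4, 50.4, 38.8 and 20.4 CPM in P09 and 83.0, 26.3, 41.8, 13.4 and 23.8 CPM in P22. It exceeded P18 in 4 of 5 animals in both P09 and P22, with overlapping ranges (log2 0.69 ± 1.26 and 0.25 ± 1.24, edgeR adjusted p = 1). In P22, 39 of the 42 pools with Itgb4 at 10 CPM held Krt14.

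Itga6 was at 48.7, 108, 12.2 and 47.6 CPM in P10, 90.7, 18.3, 81.1 and 69.1 CPM in P16, 54.3, 41.6, 52.9, 68.7 and 59.6 CPM in P09 and 62.2, 55.9, 35.5, 72.2 and 45.6 CPM in P22, a range that overlaps P18 in each group. Lama5 was at 43.4, 0, 0 and 8.33 CPM in P10 and 22.4, 65.7, 37.5 and 4.78 CPM in P16, where 2 and 0 of the 4 animals had 0 counts. Lamb3 was higher than in P18 in 5 of 5 animals both in P09 (20.1, 15.1, 28.2, 15.2 and 14.6 CPM) and in P22 (27.2, 20.0, 24.6, 5.49 and 33.5 CPM). P09 did not overlap P18, but the fitted log2 fold changes of 1.19 ± 1.54 and 1.30 ± 1.54 did not pass (edgeR adjusted p = 1). The leukocyte chains of P10 came mostly from TENA2517: Itgam was at 0, 0.0522, 123 and 0.391 CPM, Itgax at 0, 4.18, 179 and 0.755 CPM and Itgb2 at 1.37, 0, 279 and 1.61 CPM. Ptprc reached 10 CPM in 4 of the 25 P10 pools, and 3 of the 3 pools with Itgb2 held it.

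In P17, mCherry-positive and EpCAM-high, edgeR called 0 members against P18 (0.0% of all genes), while 3 had an unadjusted p below 0.05 (5.02%) and DESeq2 called 5 (5.26%). Lamb3 had 2 counts in the 3 P17 animals, a pooled log2 ratio of -7.41 (95% exact interval -10.45 to -5.55, unadjusted p = 0.00368, edgeR adjusted p = 0.905). Itgb5 was at 1.79, 0.999 and 1.94 CPM in P17, below all P18 animals (log2 -3.11 ± 1.83, unadjusted p = 0.1, edgeR adjusted p = 1). Itgb1 was at 47.6, 38.3 and 84.0 CPM, Itga6 at 25.4, 37.4 and 68.1 CPM and Itgb4 at 6.51, 37.8 and 13.3 CPM in P17, and each overlapped P18. The groups did not overlap for 4 members, Itgb5, Itgb6, Itgb8 and Lamb3, all lower in P17 (7.31% of all genes).

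Between the lines, Lama1, Lama5, Lamb1, Lamb2 and Lamc1 lay higher in each P15 animal of the Cdh2 line than in each of the Tnc line, whereas Lama4 and Lamb3 overlapped, and edgeR called no member. Ptprc was at 10 CPM in 12 of 12 P15 pools of the Tnc line, against 0 of 16 of the Cdh2 line. The 5 leukocyte markers summed to 1159 to 4652 CPM, against 2.21 to 21.6 CPM. The part of leukocyte RNA in the differences between the lines was not tested. The fit over P15 tested the 19 of 36 members that passed the filter on low counts, and edgeR called 0 of them (0.0% of 14028 genes), with 8 at an unadjusted p below 0.05 (10.6%) and 7 called by DESeq2 (9.49%). The groups did not overlap for 10 of the 19, all higher in the Cdh2 line (21.7% of all genes). Lamb2 was at 63.0, 37.0 and 119 CPM in the Cdh2 line, against 0 counts in the 3 animals of the Tnc line, a log2 fold change of at least 10.59 (unadjusted p = 0.000808, edgeR adjusted p = 0.119). Lama5 was at 109, 29.7 and 8.70 CPM, against 0 counts, at least 9.85 (unadjusted p = 0.00289, edgeR adjusted p = 0.119). The log2 fold changes of Lamb1, Lama1 and Itgb1 were 6.09 ± 1.40, 6.68 ± 1.72 and 2.17 ± 0.85 (edgeR adjusted p = 0.119, 0.119 and 0.358). Itgb2 was lower in the Cdh2 line by the fit, at -7.30 ± 2.83 with overlapping groups (edgeR adjusted p = 0.351).

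The difference of the P15 effect between the lines was tested as an interaction, for which edgeR called 0 members (0.00888% of all genes), 7 had an unadjusted p below 0.05 (6.94%) and DESeq2 called 10 (9.88%). The fitted differences on the log2 scale were 7.59 ± 2.34 for Lamb1 and 2.61 ± 1.05 for Itgb1 (edgeR adjusted p = 0.37 and 0.591). The part of leukocyte RNA, found in P15 of the Tnc line, was not tested here either. In P18 the fit tested 22 members, and edgeR called 0 (0.0% of 17878 genes), with 1 at an unadjusted p below 0.05 (2.41%), Itga1, and 0 called by DESeq2 (0.0168%). All Cdh2 animals and TENA2524 were sequenced in lane 2 and the other 4 Tnc animals in lane 1, so line and lane largely cannot be told apart. In lane 2 alone the Tnc line has 1 P15 animal, TENA2524, which is 1 library of 508631 counts that held Ptprc. It had Lama5, Lamb1, Lamb2 and Lama1 at 0 CPM and Itgb1 at 67.4 CPM from 42 counts. At this depth a value of 0 says little, so the line difference cannot be checked within the lane.

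P05 of the Cdh2 line has 1 animal, Cdh1725, so it was set beside the others without a test. Its 10 pools held Itgb1 at 336.5 CPM, Lama4 at 149.6 CPM, Lamb1 at 132 CPM, Lamc1 at 59.4 CPM and Itga6 at 69.0 CPM, and 0 counts of Itgb6 and Lamb3. In P18 of the same animal Itgb1 was at 133 CPM, Lama4 at 4.38 CPM, Lamb1 at 8.46 CPM, Lamc1 at 3.07 CPM and Itga6 at 62.4 CPM. Itgam was at 31.5 CPM in P05, and both of its pools with Itgam at 10 CPM held Ptprc.

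Genes that work with these chains were read from 4 lists chosen with earlier results of these data known, and calls are those of edgeR, which called 0.545% of all genes in P05 and 0.729% in P15 against P18 of the Tnc line. Of 21 adhesion adaptors (talins, kindlins, vinculin, paxillin and others), 1 was lower and 0 higher in P05 against P18 of the Tnc line: Fermt1, the epithelial kindlin, had 0 counts in P05, against 19.6 CPM on average in P18, a log2 fold change of -9.67 or lower (edgeR adjusted p = 0.0459). Of 8 basement membrane partners 1 was higher and 0 lower: Nid1, which links laminin to collagen IV, averaged 122 CPM in P05, against 0 counts in P18, at least 13.27 on the log2 scale (edgeR adjusted p = 0.0325). Of 14 other integrin ligands 3 were higher and 0 lower, Col1a1 (log2 12.89), Col1a2 (13.54) and Vcam1 (9.40; edgeR adjusted p = 0.0107, 0.0325 and 0.0406). Vcam1 is the counter-receptor of alpha 4 integrin, and Col1a1 and Col1a2 are also among the 5 fibroblast markers. In P15 against P18 of the Tnc line Cdh1, the ligand of alpha E beta 7 integrin and 1 of the 5 epithelial markers, was the 1 gene called, with 0 counts in P15, against 152 CPM on average in P18, a log2 fold change of -11.10 or lower (edgeR adjusted p = 0.0326). Of the 7 hemidesmosome genes 0 were called in any comparison, and in the other comparisons 0 genes of the 4 lists were called.

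Of the remaining members, 12 were rare. Lamc3 reached 10 CPM in 1 of 335 pools, Itga7 in 2, Itga10 and Itgae in 3, Itgad and Itgb7 in 4, Itga4 and Itgal in 7, Itga11 in 8, Lama2 in 11, Itga1 in 17 and Itga9 in 18. Lama2, the alpha chain of muscle and stromal laminins, is named after its values were seen. It was at 121, 41.8, 0, 3.31 and 72.3 CPM in P05 of the Tnc line, against 0, 0, 0.142, 0 and 0 CPM in P18 (log2 10.19 ± 3.55, unadjusted p = 0.00826, edgeR adjusted p = 0.188), and 7 of its 7 pools there held Col1a1. The 6 P05 pools with the collagen receptor chain Itga11 all held Col1a1 as well, against 16 of all 32 P05 pools. Itgb3 and Itga8, which pair with alpha V or alpha IIb and with beta 1, reached 10 CPM in 102 and 69 pools and were called by the planned edgeR fit in no comparison. DESeq2 called Itga8 in P15 against P18 and against P05 of the Tnc line and for the difference of the P15 effect, and edgeR on P15 and P18 of the Tnc line alone called it as well. Of the exon bases of Itga10, 33.5% lie also in Gm42957 on the same strand, so its counts are uncertain.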

How the data were processed

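The deposited table holds whole-number counts of reads per gene, which the authors made with STAR, SAMtools, Subread and featureCounts on mm10, per the submitters' processing notes; the sources used here give no versions and no strand setting. Of 504 wells 17 were empty, and of the 487 with cells the 335 that the authors marked as passing quality control were used. No values that could not be mapped to a sample were used.

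Counts of the libraries of an animal and population were summed, giving 43 sums of 508631 to 204977299 counts, and edgeR 4.0.16 (R 4.3.3) was run on them. The joint quasi-likelihood fit used TMM scaling, filterByExpr and a block for each animal and tested 33768 genes. The fits between lines used no block. Populations of an animal share its label, from which the pairing comes. Genes were called at a Benjamini-Hochberg adjusted p below 0.05 within a comparison; p-values are two-sided. Where a group had 0 counts, fold changes are bounds against 3 counts over the group; where it had 1 to 3, exact 95% intervals of the pooled ratio are given. Both cover counting error only, since reads without molecular identifiers are not independent molecules. Pools were compared by CPM of a single library without TMM factors, with 10 CPM as the level for presence. The fit was also run on simulated counts, which took their spread from the main fit.

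Alternatives were DESeq2 1.42.0, RLE scaling, no filter, equal weight per library, leaving out each animal or the pools with Ptprc, no replicate block, each pair of populations alone and, chosen after seeing the data, the newer edgeR quasi-likelihood fit. The text names the 3 members of each class with the highest mean level over all sums and any member called; the other members were picked for mention after their values were seen. The members and lists were chosen with earlier results of these data known. Promoter windows come from RefSeq and matched 23 members. None of the 504 wells is a P17 library of the Cdh2 line.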

Additional observations from a re-analysis of the deposited data

Results flagged for a closer look

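In 133 groups of 4 or 5 animals, over the 19 members whose values per animal are printed, 31 single animals stood far from the other animals of their group on the log2 scale of CPM plus 1, where chance flags about 1 in 20 groups. Many of these groups are otherwise at or near 0, so that a few counts set an animal apart.

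P18 of Cdh1624, the sum of 2 shallow libraries, stood apart for Itga6 at 221 CPM, Itgax at 4.95 CPM, Itgb1 at 1.8 CPM and Lamb2 at 0 CPM. P10 of TENA2517 stood apart for Itgam at 123 CPM and Itgb2 at 279 CPM. P16 of TENA2483, which is 1 library, was low for Itgb4 at 1.22 CPM and Lamb3 at 0 CPM. In P05 of the Tnc line Lama5 was at 0 CPM in TENA2517, Itgb6 at 4.26 CPM in TENA2462 and Lamb3 at 0.996 CPM in TENA2560. In P22 Lama5 was at 58.9 CPM in TENA2462, Itga5 at 7.88 CPM and Lama1 at 3.9 CPM in TENA2524, and Itgax at 0.101 CPM in TENA2517. Itgb4 was low in P18 of TENA2524 at 4.96 CPM, and Lamc1 was at 0 CPM in P09 of TENA2560.

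The other animals were high in groups near 0. In P18 of the Tnc line these were Itga5 at 0.383 CPM and Itgb2 at 1.47 CPM in TENA2462, and Itgam at 0.0178 CPM and Lama2 at 0.142 CPM in TENA2517. In P18 of the Cdh2 line they were Itga5 at 0.26 CPM in Cdh1739, Itgam at 0.0522 CPM in Cdh1654 and Itgb2 at 0.984 CPM in Cdh1725. In P09 they were Itga5 at 1.07 CPM and Itgax at 0.766 CPM in TENA2483, and Lama2 at 0.207 CPM in TENA2524. In P16 they were Itgax at 2.58 CPM and Lama2 at 0.591 CPM in TENA2462 and Itgb2 at 0.772 CPM in TENA2517, and in P10 Lama2 at 3.36 CPM in TENA2462.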

How the results depend on the processing

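Over 12 comparisons, 162 counts of called members were recomputed under the alternatives, and 135 stayed within 1.5 times the reported count. The reported count was 0 in every comparison but P05 against P18 of the Tnc line. Nearly all of the 135 are therefore counts of 0 that stayed 0, which says little about robustness. The count of 2 in P05 was kept only with no filter, no replicate block and RLE scaling. DESeq2 called 9 members in P15 against P18 of the Tnc line, 2 in P10, 1 in P16, 2 in P09, 1 in P22, 5 in P17 and 15 in P05. It called 8 in P15 against P05, 9 in P15 against P18 of the Cdh2 line, 10 for the difference of the P15 effect and 7 in P15 between the lines. Some calls of DESeq2 rest on few or no counts, such as Itgal in P15 of the Cdh2 line, Itgax in P22 and Lama2 in P17. The newer quasi-likelihood fit called 4 in P15 and 11 in P05 against P18 of the Tnc line, and 1 (Itgb6) in P15 of the Cdh2 line. With no replicate block, edgeR called 6 in P15 against P18 of the Tnc line and 1 in P15 against P05, so calls there depend on the pairing by animal. Each pair of populations alone gave 4 calls in P15 against P18 of the Tnc line and 0 in P05. The count of 2 in P05 fell to 1 with equal weight per library and 0 without the pools with Ptprc. No filter gave 1 call in P15 between the lines (Lamb2). Leaving out any 1 animal gave 0 calls in P05 against P18, and 0 to 1 in P15 against P05 (Itga6 without TENA2517). The cause of these changes was not tested. RLE scaling changed no count. Over the alternatives that gave a value, the direction of Itgam and Itgax in P05 did not change. A few shallow sums limit precision, above all P15 of TENA2524 and P18 of Cdh1624.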
